A study of Mus musculus with 28 samples.

Results

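A set of 9 genes that adipocytes express strongly, whose levels in whole muscle can be read as a sign of fat in the tissue, was followed through 28 samples of mouse calf muscle: Adipoq, Lep, Retn, Cfd, Plin1, Cidec, Fabp4, Scd1 and Car3. They were found by their annotated symbols among 25697 array probes, and those brighter than a normalized intensity of 24 in at least 7 of the 28 samples were interpreted. Of the 9 genes, 8 had a probe, each a single one, and 6 passed this limit (Adipoq, Lep, Plin1, Cidec, Scd1 and Car3), out of 8389 genes tested. Just inside the rule stood Plin1, over the limit in 14 samples with a median intensity of 24.03, and Cidec, over it in 15 with a median of 25.0; outside it stood Retn and Fabp4, over the limit in 0 samples with medians of -8.84 and -3.73. Cfd, the complement factor adipsin, was matched to no probe and was not analysed here.

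The tissue was the whole gastrocnemius, plantaris and soleus complex of female FVB mice aged 4 months. Samples formed 4 groups of 7: wild type at rest, wild type contracted, knockout at rest and knockout contracted. Knockout mice lacked LKB1, the kinase encoded by Stk11 that activates AMPK, in skeletal muscle specifically, so fat, vessel and blood cells in the same piece of tissue were not the cells targeted; the labels do not name the promoter that drove the deletion. Contracted muscles had just been stimulated in situ through the sciatic nerve for 15 minutes, and the study asked how LKB1 shapes the response to that stimulus. No label says which samples came from separate animals, so the p-values cover the spread among these 28 samples, which may be partly technical. All 28 arrays carried muscle: 11 of 11 measured fast-fibre genes were over the limit in every sample, and their summed intensity ran from 233000 to 324000. Stk11 had a log2 level of 10.32 ± 0.20 in resting and 10.45 ± 0.16 in contracted wild type, against 8.96 ± 0.32 and 8.97 ± 0.22 in knockout (SD, n = 7 each). The highest knockout sample (9.32) lay below the lowest wild-type sample (10.10), with an exact two-sided permutation p of 0.000583 in each state, the smallest that 7 against 7 samples allow.

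White adipocytes store triglyceride in 1 large droplet coated with perilipin 1 and CIDEC, and they secrete hormones such as adiponectin and leptin. In calf muscle such cells lie between the fibres, along vessels and nerves and on the outer sheath. Muscle fibres themselves make little or none of Adipoq, Lep, Plin1 and Cidec, while Car3 is also abundant in slow fibres. In a bulk sample a lower level can stand for fewer adipocytes or for less RNA per adipocyte, and these cannot be told apart.

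A few promoters are shown because Adipoq, Lep and Plin1 stand for the hormones and the droplet coat whose levels moved together from sample to sample. Each is the 250 bases before the 1 transcription start that the RefSeq promoter table gives for the gene on mouse assembly GRCm38.p6, read 5′ to 3′ on the gene's own strand; capitals mark matches, on either strand, to the CCAAT box (CCAAT), the core of a C/EBP site (TTGCNNAA) or the GC box (GGGCGG). Adipoq lies on the plus strand at chr16:23146286-23146535, Lep on the plus strand at chr6:29059971-29060220 and Plin1 on the minus strand at chr7:79732777-79733026.
Adipoq: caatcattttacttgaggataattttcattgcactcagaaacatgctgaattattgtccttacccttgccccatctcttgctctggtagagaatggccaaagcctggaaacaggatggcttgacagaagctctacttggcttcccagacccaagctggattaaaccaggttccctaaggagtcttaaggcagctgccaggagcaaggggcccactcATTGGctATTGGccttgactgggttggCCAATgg
Lep: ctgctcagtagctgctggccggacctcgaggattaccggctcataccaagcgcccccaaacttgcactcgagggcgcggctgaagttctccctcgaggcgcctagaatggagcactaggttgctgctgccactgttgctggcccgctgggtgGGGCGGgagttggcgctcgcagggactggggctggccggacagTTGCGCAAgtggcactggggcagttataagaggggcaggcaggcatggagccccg
Plin1: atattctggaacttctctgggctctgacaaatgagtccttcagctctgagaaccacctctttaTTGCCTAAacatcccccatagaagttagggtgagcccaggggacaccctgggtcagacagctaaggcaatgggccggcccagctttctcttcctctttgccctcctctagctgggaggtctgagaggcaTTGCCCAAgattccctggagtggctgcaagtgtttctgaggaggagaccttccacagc
The Adipoq window held 3 CCAAT matches, at 34 to 30 and 27 to 23 bases before the start on the opposite strand and at 7 to 3 bases on its own strand. Lep had 1 GC box at 98 to 93 bases and 1 palindromic TTGCNNAA at 55 to 48 bases, which reads the same on both strands. Plin1 had TTGCNNAA at 187 to 180 and at 58 to 51 bases. The start used for Plin1 lies inside the gene's annotated span, so that the 128 window bases nearest to it, with the second of these matches, are within that span; the Adipoq and Lep windows end at theirs. Of 32851 mouse promoter windows of the same length, 33.8% held CCAAT, 9.56% TTGCNNAA and 32.7% GGGCGG. Neither the nuclear receptor half-site AGGTCA (in 14% of windows) nor the TATA box TATAAA (in 12.4%) matched in these 3 windows, which says only that these letters are not there.

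Adipoq (probe ILMN_2738082, gene at chr16:23146536-23157968), encoding adiponectin, was over the limit in 28 of 28 samples. Its deposited normalized intensity, in arbitrary array units, ran in resting wild type from 399 through a median of 527 to 2458, and in contracted wild type from 166 through 986 to 1658. Resting knockout samples spanned 88.5 to 2248 with a median of 926, and contracted knockout samples 78.8 to 4958 with a median of 177. The ratio of the highest to the lowest sample was thus 6.16 and 10.0 in the wild-type groups, 25.4 in resting knockout and 62.9 in contracted knockout, and both ends of the last group were the extremes of the whole study. The 14 knockout samples left a gap in log2 level between 7.99 and 9.95, with 7 samples below it and 7 above, and 7 wild-type samples lay inside that gap.

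Lep (ILMN_2695964, chr6:29060221-29073876), encoding the satiety hormone leptin, was also over the limit in every sample. Its intensity ran from 141 through 306 to 857 in resting wild type and from 148 through 480 to 1132 in contracted wild type. In knockout it ran from 77.3 through 330 to 1025 at rest and from 73.5 through 158 to 2363 after contraction, a 32.2-fold span within 1 group. The 4 groups overlapped widely. Retn (ILMN_2721016, chr8:3655770-3659818), which encodes resistin, was not well above background: its intensity stayed between -29.7 and 8.74, and it was detected on 0 of the 7 arrays whose detection p-values could be matched to samples.

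Scd1 (ILMN_1237375, chr19:44394450-44407709), the desaturase that makes oleate and palmitoleate, was far over the limit everywhere. Resting wild-type samples ran from 1353 through 2185 to 6599 in intensity and contracted ones from 558 through 2866 to 5393. Knockout samples ran from 323 through 2630 to 4817 at rest and from 484 through 1023 to 7713 after contraction. The highest and lowest of the 28 samples, both knockout, differed 23.9-fold. Fabp4 (ILMN_2615947, chr3:10204342-10208616), the fatty acid carrier of adipocytes, was not well above background, with intensities from -18.9 to 3.96 and detection on 0 of 7 matched arrays. Of the wider lists used below, Cd36 and Fasn were likewise under the limit in every sample (at most 20.8 and 19.6). Whether these probes report their transcripts was not tested, so the genes are not read as unexpressed.

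The droplet-coat genes were close to the limit. Plin1 (ILMN_2687984, chr7:79721164-79732904), encoding the perilipin that guards the adipocyte droplet from lipases, passed the limit in 4 of 7 samples in each group except contracted knockout, where it passed in 2 of 7; its brightest samples there were number 5 at 284 and number 2 at 131. Cidec (ILMN_1222679, chr6:113424634-113435760), whose protein fuses small droplets into large ones, passed in 3, 5, 4 and 3 samples of the groups in the order above, with a maximum of 157 in contracted knockout sample 5. For samples under the limit only an upper bound is known, and the offset of 50 added before taking logs shrinks their differences. Car3 (ILMN_2630047, chr3:14863538-14872381), a carbonic anhydrase of adipocytes and slow fibres, was over the limit in every sample, and its intensity ran from 5638 to 10622, 4449 to 9020, 5393 to 12708 and 3974 to 15227 in the 4 groups, a 3.83-fold span in the widest. Contracted knockout sample 5 was the highest of the 28 samples for all 6 genes. The plot of log2 levels by sample shows these spans.

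**Figure D1:**
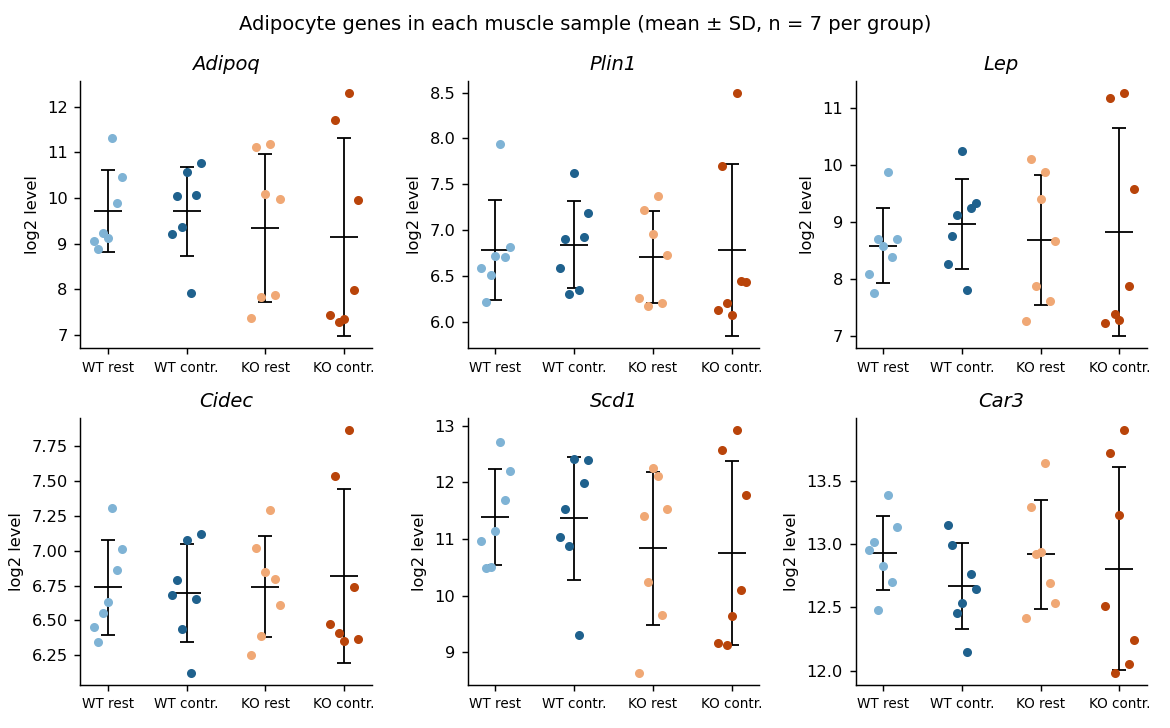
Log2 level (log2 of the background-corrected normalized intensity) of the 6 adipocyte genes in each of 28 samples, in 4 groups of 7 (WT, wild type; KO, LKB1 knockout; contr., contracted). Points are samples, the long bar is the group mean and the whiskers are 1 SD; the groups overlap for every gene, and the whiskers of Adipoq widen from 0.89 in resting wild type to 2.17 in contracted knockout.

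No group mean of the 6 genes was separated from another by limma (linear model with 4 group means over 28 arrays, Benjamini-Hochberg adjusted p under 0.05 over all 8389 genes). Mean log2 Adipoq was 9.71 ± 0.89 and 9.71 ± 0.97 in resting and contracted wild type, and 9.35 ± 1.62 and 9.14 ± 2.17 in resting and contracted knockout (SD, n = 7 each). Knockout against wild type, 0 of 6 genes were called at rest, where 3.77% of all genes were, and 0 of 6 after contraction, where 8.9% were. Contraction called 0 of 6 in wild type, against 0% of all genes, and 0 of 6 in knockout, against 0.0119%. The difference between the contraction responses called 0 of 6, against 0% of all genes. At an unadjusted limma p under 0.05 the count was also 0 of 6 in each of the 5 comparisons, while 1830, 2205, 89, 170 and 53 of all genes passed it in the same order. In none of the 4 comparisons of 2 groups did the samples of a member separate without overlap. The share of all genes that separate in this way was not computed, so this says nothing particular about the members.

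The intervals left room for sizeable differences. Each used 1 spread shared by all 4 groups, though the SD of Adipoq was 0.89 and 0.97 in wild type and 1.62 and 2.17 in knockout. The log2 difference in Adipoq, knockout minus wild type, was -0.36 at rest (95% interval -1.90 to 1.18, limma adjusted p = 0.805) and -0.56 after contraction (-2.10 to 0.98, adjusted p = 0.667). The second of these passed only when arrays were weighted by their fit to the group means, at -1.47 with an adjusted p of 0.0495. For Scd1 the same log2 differences were -0.55 (-1.84 to 0.74) and -0.60 (-1.90 to 0.69), neither passing (limma adjusted p = 0.635 at rest). Lep differed by 0.10 at rest (-1.12 to 1.32) and -0.14 after contraction (-1.36 to 1.08), so that the 2 hormone genes did not share a sign at rest, neither difference passing the test.

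Plin1, Cidec and Car3 had narrower intervals. Plin1 and Cidec were over the limit in only 14 and 15 samples, and the offset shrinks differences among samples under it. Their narrow intervals are therefore not read as excluding larger differences in level. Knockout minus wild type at rest was -0.08 for Plin1 (-0.74 to 0.58), 0.0045 for Cidec (-0.45 to 0.46) and -0.010 for Car3 (-0.54 to 0.52) on the log2 scale. After contraction the same differences were -0.06 (-0.72 to 0.60), 0.12 (-0.33 to 0.58) and 0.14 (-0.39 to 0.66). A Car3 difference of a full log2 unit in either direction lay outside both of its intervals, whereas an Adipoq level lower in knockout by that much lay inside both of its own. Contraction in wild type gave log2 differences of -0.0038 for Adipoq (-1.54 to 1.53), 0.38 for Lep (-0.84 to 1.59), -0.02 for Scd1 (-1.31 to 1.27) and -0.26 for Car3 (-0.78 to 0.27). In knockout they were -0.21 (-1.75 to 1.33), 0.14 (-1.08 to 1.36), -0.08 (-1.37 to 1.21) and -0.11 (-0.64 to 0.41). These genes spread more in knockout, so the shared spread makes the contraction intervals too wide in wild type and too narrow in knockout. The median standard error of the 6 genes in a comparison of 2 groups was 0.46, against 0.13 over all genes.

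Within groups the samples differed more in these genes than in most others. The SD of Adipoq around its group means was 1.51 on the log2 scale, the 12th largest of 8389 genes, against a median of 0.25. Scd1 followed with 1.26 (rank 23) and Lep with 1.19 (rank 32). Plin1 had 0.64 (rank 295), Car3 0.51 (rank 641) and Cidec 0.44 (rank 1012, with 87.9% of genes below it). The spread of Adipoq was 0.89 and 0.97 in resting and contracted wild type and 1.62 and 2.17 in resting and contracted knockout, while the median gene had 0.23, 0.21, 0.26 and 0.26; whether the spread itself differs between genotypes was not tested. Among the 11 genes ahead of Adipoq were Sspn, encoding the sarcolemmal protein sarcospan (SD 2.73, r = -0.17 with Adipoq), Actc1, cardiac actin (2.19, r = -0.55), Cyp2e1, a cytochrome P450 (1.67, r = 0.98), and Cd79b of the B-cell receptor (1.51, r = 0.46).

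**Figure D2:**
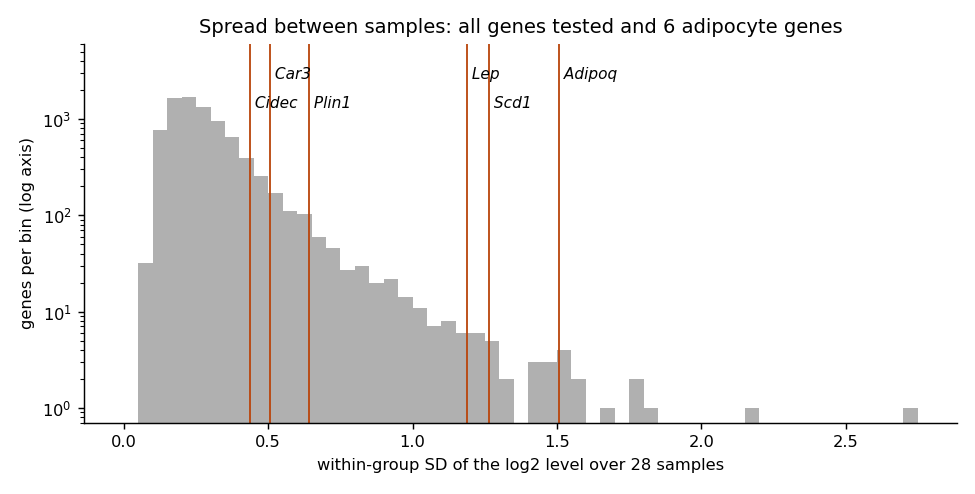
Histogram of the within-group SD of the log2 level over 28 samples for 8389 genes; the count axis is logarithmic. Vertical lines mark the 6 adipocyte genes: Adipoq (1.51), Scd1 (1.26) and Lep (1.19) lie in the far right tail, and Cidec (0.44), Car3 (0.51) and Plin1 (0.64) right of the median of 0.25.

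The 6 genes rose and fell together from sample to sample. With each sample taken as its deviation from the group mean, so that genotype and contraction drop out, the slope of a gene on log2 Adipoq was positive and passed limma's test (adjusted over 8388 genes) for 5 of 5 other members. Among all genes, 11.4% had a called positive slope, 14.7% a called negative one and 26.1% either. Lep had a slope of 0.76 (SE 0.04, adjusted p = 5.01e-13), with Pearson r = 0.96 and Spearman rho = 0.95 over 28 samples. Scd1 had a slope of 0.79 (SE 0.05, adjusted p = 1.2e-11), with r = 0.95 and rho = 0.94. Both genes were high in the samples high in Adipoq and low in those low in it, in all 4 groups. The background share depended on the samples and the model. Without contracted knockout sample 5, 1273 genes had a called slope in place of 2188, and 5 of 5 members still did. With the replicate number as a fixed block 158 genes had one, and 4 of 5 members did.

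For Plin1 the slope was 0.39 (SE 0.04, limma adjusted p = 1.34e-08; r = 0.90, rho = 0.88) and for Cidec 0.25 (SE 0.03, adjusted p = 5.37e-07; r = 0.87, rho = 0.84). Shallower slopes were measured for these 2 dim genes, on which the offset weighs most. Car3 had a slope of 0.23 (SE 0.05, limma adjusted p = 0.00112; r = 0.67, rho = 0.56). Shuffling samples within groups 100000 times gave a permutation p of 1e-05, the smallest it can give, for r and rho of the first 4 genes, and 0.0029 (r) and 0.0109 (rho) for Car3. The shuffles and the main limma slope fit ignored the replicate number, by which knockout samples correlated over all genes (r from 0.37 to 0.85). The p-values of both may therefore be too small. Without contracted knockout samples 5 and 2, which lay farthest from the median in Adipoq, r was 0.93 for Lep and for Scd1, 0.84 for Plin1, 0.77 for Cidec and 0.42 for Car3. The Car3 call rested on those samples, since its limma adjusted p without them was 0.201. It was also lost in the wild-type samples alone (0.336), in the resting samples alone (0.0571) and with the replicate number as a block (0.413).

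**Figure D3:**
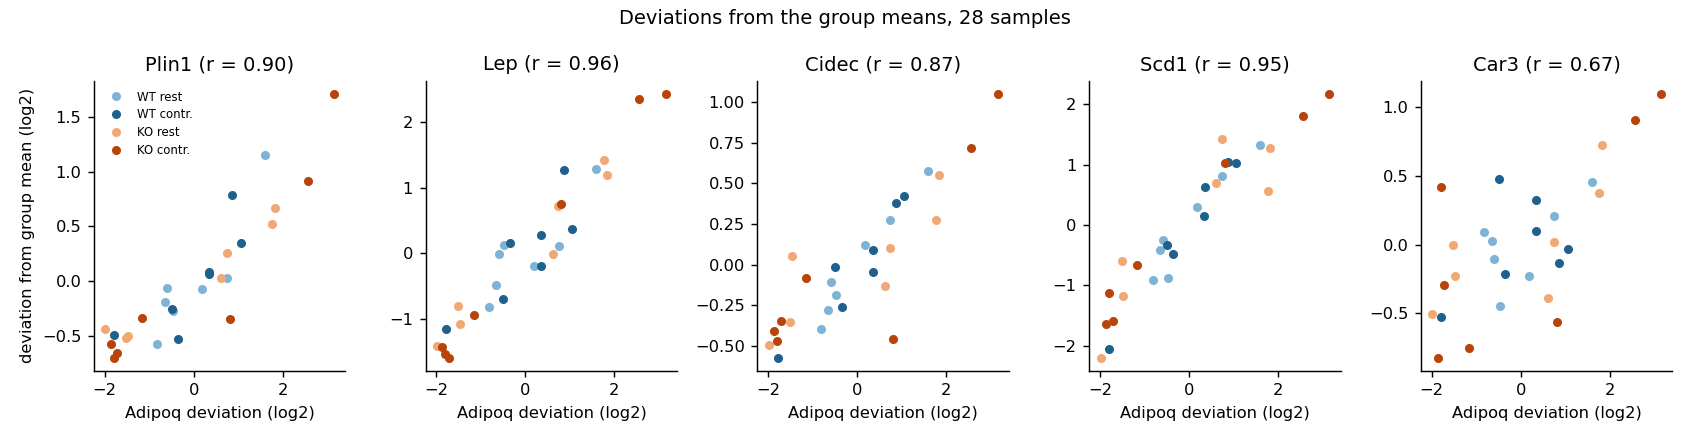
Deviation of each sample from its group mean (log2) for Plin1, Lep, Cidec, Scd1 and Car3 against that of Adipoq, 28 samples coloured by group. Lep (r = 0.96) and Scd1 (r = 0.95) form narrow bands through all 4 groups, and Car3 (r = 0.67) scatters widely except at the highest Adipoq samples.

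A similar relation was read within wild type and, in knockout, on each side of the Adipoq gap. The wild-type r used deviations from group means, while the knockout r used log2 levels with resting and contracted samples pooled. Both sides of the gap were cut by Adipoq itself, which limits its range, so r is not comparable between these subsets. Over the 14 wild-type samples r was 0.97 for Scd1, 0.96 for Cidec, 0.86 for Plin1, 0.85 for Lep and 0.50 for Car3. Over the 7 knockout samples below the gap r was 0.90 for Lep, 0.78 for Scd1, 0.76 for Cidec and 0.56 for Plin1, and over the 7 above it 0.92, 0.68, 0.96 and 0.96 in the same order. Car3 had r = -0.03 below the gap and 0.94 above it. Lep and Scd1 thus had positive r in every one of these subsets and Car3 did not. Cidec and Plin1 had it too, but below the gap Plin1 was under the limit in every sample (at most 10.8). Cidec was over the limit there only in resting and contracted sample 6 (34.6 and 30.1). The r of Plin1 and Cidec below the gap rests mostly on values near background and is not read as a shared relation. Between the members themselves, r ran from 0.62 (Lep with Car3 and Scd1 with Car3) to 0.96 (Adipoq with Lep), and Plin1 and Cidec, the droplet-coat pair, had 0.93.

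Samples of equal number were compared between the resting and contracted groups of a genotype. In knockout, Adipoq of the 7 resting samples and of the 7 contracted samples with the same numbers had r = 0.82 (exact permutation p = 0.0419, adjusted over the 2 genotypes 0.0838) and rho = 0.71 (exact p = 0.0881, adjusted 0.176). Without the 2 pairs whose resting sample lay farthest from the resting median, numbers 1 and 3, r was 0.74. The high numbers 2 and 5 stayed in that r. Log2 Adipoq was 11.12 and 11.18 in resting samples 2 and 5, the highest of their group, and 11.70 and 12.30 in contracted samples 2 and 5. Samples 1, 3 and 6 were under 8 in both states. Number 4 broke the pattern, with 10.09 at rest and 7.35 after contraction, a difference of -2.75. The other 5 genes had r between 0.62 and 0.81 across the same knockout numbers, and between 0.43 and 0.78 without the 2 farthest pairs of each.

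In wild type Adipoq had r = -0.44 (exact permutation p = 0.326) and rho = 0 (exact p = 1). Without the 2 pairs whose resting sample lay farthest from the resting median, numbers 5 and 7, r was 0.11, so its negative sign rested on those pairs. Contracted minus resting log2 Adipoq ran from -3.39 for number 5 (11.31 at rest, 7.92 contracted) to 1.45 for number 4, and 6 of 7 numbers were higher after contraction. The other 5 genes had r between -0.34 and -0.19, and without the 2 farthest pairs of each gene 0.81 for Plin1, 0.65 for Lep, 0.61 for Scd1, 0.17 for Car3 and -0.02 for Cidec. A difference between the genotypes in this relation was not tested, and the labels do not say whether an equal number marks the same animal.

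**Figure D4:**
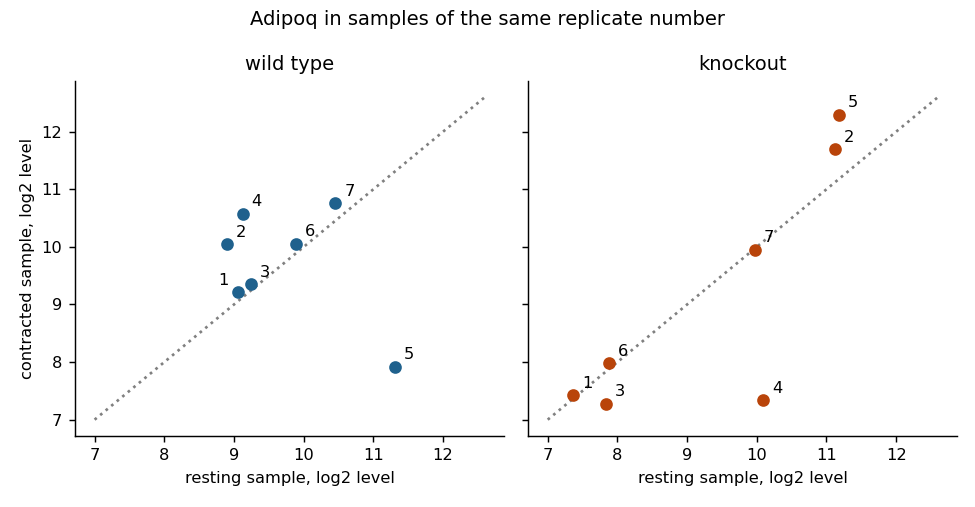
Log2 level of Adipoq in the contracted sample against the resting sample of the same replicate number, 7 numbers in each genotype; the dotted line marks equal levels. Knockout numbers 2 and 5 are high and 1, 3 and 6 low in both states, number 4 is high only at rest (10.09 against 7.35), and wild-type number 5 falls far below the line (11.31 against 7.92).

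The genes whose pattern was most like that of Adipoq, by r over the 28 deviations, were Cyp2e1 (0.98), Adig, which encodes adipogenin (0.98), Slc1a3, a glutamate transporter (0.96), Mrap, an accessory protein of melanocortin receptors (0.96), Lep, Cdo1, cysteine dioxygenase (0.96), Aoc3, an amine oxidase of adipocyte and vessel surfaces (0.96), Scd1, Tmem45b (0.94) and Ces1d, a carboxylesterase (0.94). In this order of 8388 genes Lep was number 5 and Scd1 number 8. For Ces1d r was 0.99 in knockout and 0.66 in wild type. At the other end stood Mdm2, a ubiquitin ligase acting on p53 (-0.89), Akap6, an anchoring protein of striated muscle (-0.88), and Abcb10, a mitochondrial transporter (-0.87). Median r over all genes was -0.09.

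A wider list of adipocyte genes moved with Adipoq. Of 36 further adipocyte genes, 29 were tested, and 25 had a called positive slope, 1 a negative one and 3 (Pck1, Sfrp5 and Retsat) neither, with a median r of 0.78. Over all genes the shares were 11.4% positive and 14.7% negative. Among the 25, Aoc3 had a slope of 0.62 (SE 0.04, limma adjusted p = 1.33e-12), Tmem45b 0.97 (SE 0.07, adjusted p = 3.27e-11) and Pparg, the master transcription factor of adipocytes, 0.51 (SE 0.04, adjusted p = 3.46e-09). Itga7, an integrin of muscle fibres also in the list, fell with rising Adipoq (slope -0.11, SE 0.04, adjusted p = 0.021). The summed intensity of the 29 genes ran from 50270 to 73890, 36850 to 70170, 34000 to 62830 and 25930 to 84590 in resting and contracted wild type and resting and contracted knockout. Between genotypes at rest 1 of 29 was called, against 3.77% of all genes: Itga7, higher in knockout by 0.58 (SE 0.16, limma adjusted p = 0.0424). After contraction 2 of 29 were called, against 8.9% of all genes: Itga7, higher by 0.56 (limma adjusted p = 0.0324), and Retsat, a retinol saturase, at -0.67 (limma adjusted p = 0.0448). Neither is among the 25 that rose with Adipoq.

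Of the fatty acid synthesis list, 7 of 12 tested genes rose with Adipoq and 0 fell (median r 0.69), against 11.4% and 14.7% of all genes. Slc25a1, the mitochondrial citrate carrier, had a slope of 0.46 (SE 0.05, limma adjusted p = 7.62e-07), Thrsp, the lipogenic protein Spot 14, 0.55 (SE 0.07, adjusted p = 2.23e-06), and Acaca, acetyl-CoA carboxylase 1, 0.44 (SE 0.07, adjusted p = 2.92e-05). The regulators Srebf1 and Mlxipl did not pass (slopes of -0.0037 and -0.10). Between genotypes 1 of 12 was called at rest, against 3.77% of all genes, and 0 of 12 after contraction, against 8.9%. The 1 called was Acss2, acetyl-CoA synthetase, lower in resting knockout by a log2 difference of -0.59 (SE 0.14, limma adjusted p = 0.0188). Its slope on Adipoq, 0.03, did not pass.

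Of the close relatives of the members, 5 of 10 tested had a called positive slope and 0 a negative one, against 11.4% and 14.7% of all genes. Retnla, a relative of resistin, had a slope of 0.42 (SE 0.06, limma adjusted p = 2.03e-05), Plin4 0.16 (adjusted p = 0.00126), Car14 0.30 (adjusted p = 0.00264), Cidea 0.42 (adjusted p = 0.00556) and Car2 0.09 (adjusted p = 0.0396). For Car14 r was 0.78 in the knockout samples and -0.07 in the wild-type samples, whereas the other 4 had positive r in both genotypes (0.36 to 0.66 in wild type, 0.58 to 0.85 in knockout). The other 5 relatives did not pass: Fabp3, the fatty acid carrier of muscle, with 0.04, Scd2 with 0.02, Plin2 with 0.08, Plin3 with 0.0077 and Plin5, the perilipin of oxidative tissues, with 0.15. Plin3 was instead lower in knockout, by -0.69 at rest (SE 0.17, limma adjusted p = 0.0188) and -0.78 after contraction (SE 0.17, adjusted p = 0.00471). It was the 1 of 10 called between genotypes in each state, against 3.77% of all genes at rest and 8.9% after contraction.

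Brown-fat genes gave a patchy picture. Ucp1, the uncoupling protein that defines brown and beige adipocytes, was over the limit in 6 samples: wild type at rest 5 (intensity 139), wild type contracted 4 and 7 (103 and 467), knockout at rest 2 (235) and knockout contracted 2 and 5 (28.6 and 38.0). All 6 lay above their group mean in Adipoq, by 0.87 to 3.16 on the log2 scale, and the sample with the largest excess, contracted knockout 5, had a Ucp1 intensity of 38.0 while the brightest (467) had an excess of 1.05. Elovl3, Dio2 and Prdm16 were over the limit in 0 samples. Of the 8 listed genes 2 were tested, Cox7a1 and Ppargc1b, which are both also muscle genes. The slope test was passed by 0 of these 2, against 26.1% of all genes. Cox7a1, a subunit of cytochrome oxidase, was lower in contracted knockout than in contracted wild type by a log2 difference of -0.38 (SE 0.09, limma adjusted p = 0.00833). It was 1 of 2 called there, against 8.9% of all genes, and at rest 0 of 2 were called, against 3.77%.

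Markers of other cell types were read in the same way, with all lists chosen knowing earlier results of these data. For each cell type below, the shares to compare are 11.4% of all genes with a called positive slope and 14.7% with a negative one. Endothelial genes rose with Adipoq in 8 of 11 tested (0 lower, median r 0.63), among them Pecam1 (slope 0.31, limma adjusted p = 4.53e-06), Emcn (0.21, 6.14e-05) and Esam (0.15, 0.00156), and their summed intensity ran from 6340 to 9594, 6244 to 9607, 4356 to 10080 and 4261 to 10240 in the 4 groups. Fibroblast and matrix genes rose in 7 of 11 (0 lower, median r 0.52), with Dpt (slope 0.27, adjusted p = 6.2e-05), Sparc (0.25, 0.00247) and Pdgfra (0.14, 0.00332) in front. Their sums ran from 12660 to 22520, 12180 to 25470, 14700 to 33280 and 16150 to 30170. Between genotypes 1 of 11 was called, after contraction, where 8.9% of all genes were. It was Lum, encoding lumican, higher in contracted knockout by 1.12 (SE 0.31, limma adjusted p = 0.0241). Adipose tissue holds both of these cell types as well, and their part in the slopes was not tested.

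Among macrophage genes 4 of 8 rose (C1qb at a slope of 0.22, C1qc at 0.27 and Lyz2 at 0.46, limma adjusted p from 0.00118 to 0.00507, and Mrc1) and Lgals3 fell (-0.19, adjusted p = 0.0422). Their sums ran from 1482 to 3196, 1495 to 3736, 2203 to 7933 and 2570 to 10260, and the defining marker Adgre1 passed the limit in 3 samples. Between genotypes 1 of 8 macrophage genes was called at rest, against 3.77% of all genes, and 2 of 8 after contraction, against 8.9%. Lgals3, encoding galectin-3, was higher in knockout by a log2 difference of 1.26 at rest and 1.36 after contraction (SE 0.30, limma adjusted p = 0.0188 and 0.00634). Mrc1, the mannose receptor, was higher by 0.90 after contraction (SE 0.26, limma adjusted p = 0.03). Lymphocyte genes rose in 4 of 7 (Cd37 0.16, Cd3g 0.39, Cd79a 0.28 and Cd79b 0.46, limma adjusted p from 0.0322 to 0.0497). Lymphocyte sums ran from 14.9 to 2071, 12.5 to 4165, 18.9 to 2786 and 7.255 to 2809, so that single samples carried most of that signal, and Ms4a1 was over the limit in 0 samples. Red blood cell genes rose in 3 of 4, led by Hbb-b2 (slope 0.34, adjusted p = 0.000436), with sums from 15890 to 54100 over all samples. Schwann cell genes rose in 2 of 5 (Pmp22 at 0.23 and Mbp at 0.22, adjusted p = 0.000794 and 0.0225) and fell in 1 (Egr2 at -0.13, 0.00326), with sums from 620.7 to 2922 and S100b over the limit in 0 samples. The part of these cells in the slopes was not tested.

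Skin genes stood out in a few contracted samples. Both tested keratinocyte genes rose with Adipoq (Krt14 at a slope of 0.38 and Krt10 at 0.24, limma adjusted p = 0.0264 and 0.0194). Krt14, a keratin of the basal epidermis, reached 1313 in contracted wild type 7, 1081 in contracted knockout 5, 497 in contracted wild type 6 and 202 in contracted knockout 7, and was at most 47.8 in the other 24 samples. Loricrin (Lor), of the outer epidermis, was over the limit in these same 4 samples at 1042, 747, 799.5 and 70.6 and in 0 others. Of the other listed keratinocyte genes with a probe, Krt5 passed the limit in 3 samples, Krt15 in 5, and Krt1 and Perp in 0. Contracted knockout 5 was also the sample highest in all 6 adipocyte genes, and the part of skin in its values was not tested. Keratinocyte sums ran from 187 to 2702 over all samples.

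Fibre-type genes did not share the pattern. A called positive slope was found in 1 of 11 slow-fibre genes (Tpm3, slope 0.18, limma adjusted p = 0.00918) and 1 of 11 fast-fibre genes (Casq1, slope 0.14, adjusted p = 0.0405), near the 11.4% of all genes. A called negative slope was found in 0 of either list, against 14.7% of all genes. Median r was 0.11 and -0.10, against -0.09 over all genes. Myh7, the slow myosin, had a slope of 0.28 (limma adjusted p = 0.231) and Tnni1 0.18 (adjusted p = 0.186). Their r was 0.59 and 0.59 in knockout but -0.33 and -0.06 in wild type. Other slow-fibre genes had negative r in knockout, such as Actn2 at -0.73. A difference between the genotypes in these r was not tested. Summed slow-fibre intensity ran from 40730 to 239500 over the 28 samples. The plot of gene lists against Adipoq sets these lists beside the 6 genes.

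**Figure D5:**
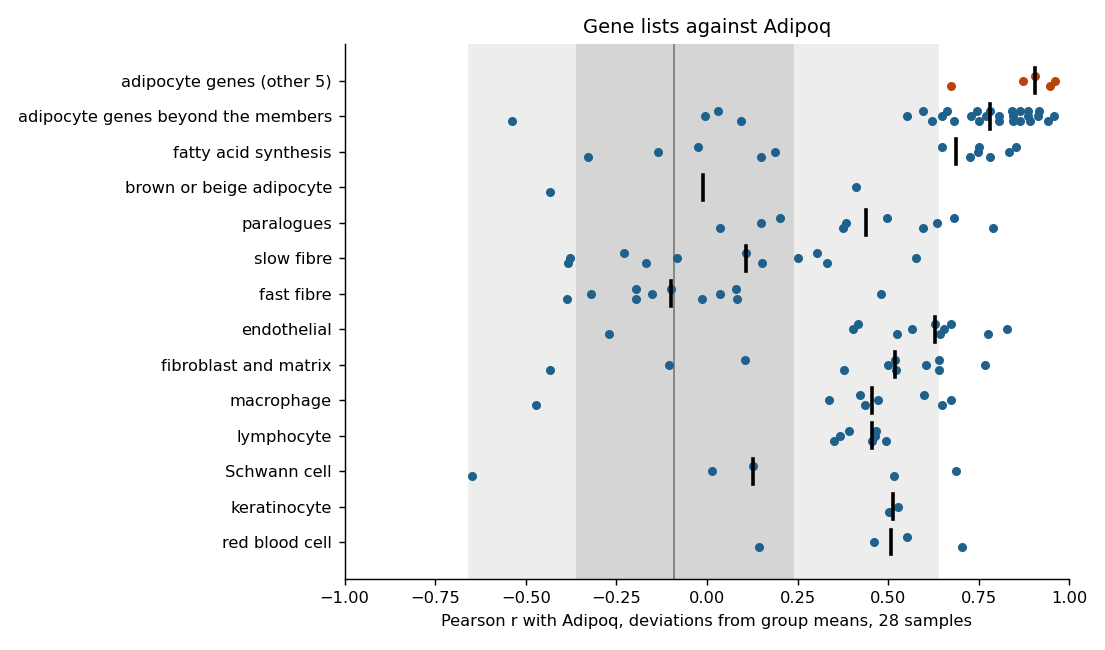
Pearson r of each gene with Adipoq over 28 deviations from the group means, by gene list; points are genes, black bars list medians, the grey line the median of all genes (-0.09), and the dark and light bands hold the middle 50% and 90% of all genes. The 5 other adipocyte genes and the wider adipocyte list (median 0.78) lie mostly right of the light band, and the fibre-type lists lie around 0.

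Taking the adipocyte level into the model changed how many genes separated the genotypes. The mean log2 level of Adipoq, Plin1, Cidec and Lep was added as a covariate to the 4 group means and the other 8385 genes were tested again. Knockout against wild type then had 596 called genes at rest (287 higher, 309 lower) in place of 316, and 1216 after contraction (602 higher, 614 lower) in place of 747; all 316 and all 747 were among them. Contraction called 0 genes in wild type and 15 in knockout, against 0 and 1 without the covariate, and the difference of the responses 0 in both fits. The median standard error over genes went from 0.133 to 0.123. Leaving out single samples, with no covariate, moved the same counts between 109 (without resting knockout 1) and 676 (without resting knockout 7) at rest and between 414 (without contracted knockout 1) and 1701 (without contracted knockout 7) after contraction.

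Scd1 and Car3, left out of that covariate, could be read with it. The standard error of Scd1 went from 0.63 to 0.24, and its knockout minus wild-type difference was -0.44 at rest (limma adjusted p = 0.239) and -0.40 after contraction (adjusted p = 0.254) on the log2 scale. For Car3 the standard error went from 0.26 to 0.19, with differences of 0.02 (adjusted p = 0.952) and 0.20 (adjusted p = 0.501). Neither gene passed the test with or without the covariate.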

How the data were processed

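RNA from 28 calf muscle samples was amplified, labelled with biotin and hybridised to Illumina bead arrays, per the labels' protocols. The deposited normalized intensity values of 25697 probes run from -36.1 to 50215 with 27.2% below 0 and near-equal quantiles between arrays. Per the submitters' processing notes the tools included limma 3.1, lumi 3.0 and R 3.1.2; their roles are not stated. Another deposited table holds un-normalized intensity and a detection p-value per probe, per the file headers; 7 of its sample columns, those of resting wild type, matched their labels, and 21 were not used. At a detection p-value near 0.05 the normalized intensity on those arrays had a median of 24.3 (21 to 39.3 between arrays).

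Here the normalized values were corrected with limma's normexp (offset 50) and set on a log2 scale in R 4.3.3 with limma 3.58.1; jsonlite 2.0.0 read the labels. Probes over 24 in at least 7 samples were kept (11723). The annotation gave 23978 probes 1 symbol, 0 several and 1719 none. Each gene was read from its probe with the highest mean, which gave 8389 genes. lmFit and eBayes fitted 4 group means to 28 arrays, with 5 contrasts; a second model added log2 Adipoq. A gene was called at a Benjamini-Hochberg adjusted p under 0.05. No arrays were identical, and between 41.2% and 41.5% of probes per array lay over the limit. The near-equal quantiles of the deposited values fix that share in advance. The number of arrays limits the precision. Steps were tested on simulated data.

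The 9 genes and the 13 gene lists were chosen with earlier results of these data known. Named are all members, Stk11, the 10 genes with the highest and the 3 with the lowest r with Adipoq, the 3 genes of each list with the smallest slope p and every tested relative; further genes were named after their values were seen. Sequences are RefSeq's, GRCm38.p6; 6 of the 9 genes had a promoter in that table.

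Labels number samples 1 to 7 in each group. Over all genes, resting and contracted samples of equal number had correlated deviations in 7 of 7 knockout pairs (r from 0.37 to 0.85) and in 5 of 7 wild-type pairs over 0.1 (-0.04 to 0.55), so the pairing is taken from the data in knockout. With the replicate block, contraction in knockout called 57 genes in place of 1, 0 of them members.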

Additional observations from a re-analysis of the deposited data

Results flagged for a closer look

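Of 28 gene-by-group sets of 7 samples examined for a sample standing apart from the rest of its group, 2 had one. Chance alone would flag about 1 in 20 such sets if values were normally distributed, which was not tested. The adipocyte genes move together, so the sets are not independent. Plin1 had a log2 level of 7.94 in resting wild-type sample 5, and the next highest sample of the group had 6.82. The same sample had the highest Adipoq, Lep, Cidec, Scd1 and Car3 of its group. Stk11 had a log2 level of 10.10 in contracted wild-type sample 4, and the next lowest sample of the group had 10.47; it still lay above every knockout sample.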

How the results depend on the processing

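Background step, offset, dim limit, choice of probe, spread estimate, array weights, samples in the fit, the replicate block, the covariate and leaving out each of 28 samples were varied. Of 1132 recomputed differences of the 6 genes 1 passed the test: with array weights, 1 member was called between contracted knockout and wild type, Adipoq at -1.47 (limma adjusted p = 0.0495). Under those weights 950 and 2616 genes were called between genotypes at rest and after contraction, in place of 316 and 747. Of 214 recomputed slopes 210 passed, and the 4 that did not were those of Car3 (0.15 with the fixed replicate block, 0.20 in resting and 0.17 in wild-type samples, 0.14 without the 2 samples farthest in Adipoq). The cause was not tested. With the replicate block the count of members called was 0 for contraction in both genotypes and 4 of 5 for slopes; as a random block, chosen after seeing the data, 0 and 5.

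Over all genes, slopes on Adipoq were called for 2188 genes, for 1273 without contracted knockout sample 5, 606 without the 2 farthest samples, 1303 with array weights, 158 with the fixed block, 84 in wild type and 1913 in knockout. Without 1 sample the genotype counts ran from 109 to 676 at rest (without resting knockout 1 and 7) and from 414 to 1701 after contraction (without contracted knockout 1 and 7), and contraction in knockout from 1 to 8. With no dim filter 207 genes were called at rest.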

Other observations

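Mast cell genes, which were in none of the lists and were picked after their values were seen, were among those most like Adipoq. Over 28 deviations from the group means Cpa3, carboxypeptidase A3 of mast cell granules, had r = 0.92 and was number 17 of 8388 genes. Cma1, a chymase, had r = 0.92 (number 18), Tpsb2, a tryptase, 0.90 (number 33) and Mcpt4, another chymase, 0.87 (number 50). Their slopes on log2 Adipoq were 0.44, 0.39, 0.37 and 0.56, with limma adjusted p from 2.46e-09 to 2.23e-07. The mast cell genes Kit, Fcer1a and Ms4a2 were also looked up but were not among the genes tested. Connective tissue mast cells lie in fat as well as along vessels and in the sheaths of muscle, and which of these places gave the signal was not tested.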
